A study of Mus musculus with 6 samples.

Results

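Activating transcription factor 4 (Atf4) and 9 genes that act with it or respond to it were followed in mouse neural stem cells in which green fluorescent protein (GFP) reports Spot14. The 10 genes were Atf4, Atf5, Ddit3, Cebpb, Asns, Slc7a11, Chac1, Trib3, Ddit4 and Sesn2, taken as a named list. All 18 probe sets annotated to exactly 1 of these symbols were used, out of 34945 such probe sets for 18193 genes, and the probe set that was brightest on average across the 6 arrays stood for its gene. All 10 passed the filter for dim genes, which asked for log2 4 or more on at least 3 of 6 arrays whatever their group, and they were part of the 10531 genes tested. Total RNA of Spot14 GFP positive cells (3 arrays) and Spot14 GFP negative cells (3 arrays) had been hybridised to Affymetrix whole-genome mouse arrays, and the labels call the arrays of a group biological replicates. Thrsp, which encodes Spot14, is known as a thyroid hormone responsive gene of lipid making tissues. Both groups are labelled as neural stem cells and share the reporter; age, strain, growth conditions and the way the cells were separated are not given in the sources used here.

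Shortage of amino acids, unfolded protein in the endoplasmic reticulum, viral RNA and lack of heme are each sensed by a kinase that phosphorylates the translation initiation factor eIF2. General protein synthesis then slows, while the Atf4 mRNA, which has upstream reading frames that normally keep it silent, is translated better. The ATF4 protein pairs with C/EBP family factors and switches on genes for amino acid synthesis, amino acid import and the charging of tRNA, together with genes that dampen the response. Because much of this control acts on translation and protein stability, the level of the Atf4 mRNA and the amount of ATF4 protein can differ, and the arrays measure mRNA.

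Cells of the groups differed in cycling and astrocyte markers, and 1 array stood apart. The mean log2 level of 9 proliferation genes was 5.26 to 6.19 on GFP positive and 7.40 to 8.30 on GFP negative arrays, and that of 10 astrocyte markers was 10.52 to 10.62 and 9.44 to 9.76. All 9 proliferation genes on the array were lower and past the threshold, of which Plk1 passed the filter only through GFP negative arrays, and 5 of 9 tested astrocyte markers rose (limma adjusted p under 0.05). With 1 array left out 0 to 9 of the former and 0 to 6 of the latter passed, and 0 of either without GFP positive replicate 1 or 3. Of the neural stem cell markers Vim, Fabp7, Sox2, Sox9, Nes, Nr2e1 and Hes5 passed the filter, Nr2e1 rose by 0.86 (limma adjusted p = 0.0308), the others did not pass the test, and Prom1 lay near background (2.53 and 3.00). Of the markers of other cell types, 2 of 7 neuronal, 2 of 5 oligodendrocyte, 1 of 6 microglial, 0 of 5 endothelial and 2 of 5 mural genes passed the filter; Dcx, Mbp, Aif1 and Pecam1 lay near background in both groups, while Olig2 (12.58 and 12.79), Cnp (12.91 and 12.54) and Map2 (12.46 and 12.80) were bright in both and did not pass the test. Of these markers the mural gene Acta2 fell by 1.29 (limma adjusted p = 0.0413). It read 4.19, 3.92 and 3.76 on GFP positive and 4.79, 5.68 and 5.26 on GFP negative arrays. It thus met the filter through the group where it was higher, so its call gives no support. The mural gene Cspg4 (−1.31, limma adjusted p = 0.134) and the neuronal gene Neurod1 (−1.06, 0.0796) were lower by sign without passing. The second principal component (36.3% of the variance) held GFP negative replicate 3 at 36.8 and the other GFP negative arrays at −31.9 and −33.8. In the control transcript of Gapdh 3′ signal exceeded 5′ signal by 2.33 (log2) on GFP negative replicate 2 and by 1.14 to 1.65 on the other arrays. The 18S ribosomal RNA control read 12.8 to 13.0 on GFP positive and 13.4 to 14.1 on GFP negative arrays. The markers named as changed and the 18S control separate the groups, while the second component and the 3′ to 5′ ratio do not; the part of any of them in the results below was not tested. In RNA from a whole cell population a smaller number of expressing cells and less RNA per cell cannot be told apart.

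None of the 10 genes of the ATF4 response passed the test between GFP positive and GFP negative cells (limma with Benjamini-Hochberg adjustment over 10531 genes, threshold 0.05), where 4.46% of all genes tested did, 2.35% as higher and 2.11% as lower. At an unadjusted p under 0.05, 2 were higher in GFP positive cells (Cebpb and Slc7a11) and 1 was lower (Asns), against 18.2% of all genes, 9.92% higher and 8.28% lower. By sign the list was split evenly, 5 higher and 5 lower, with a median log2 difference of 0.0011 in the list and 0.0049 over all genes tested. Differences ran from −0.86 for Trib3 to 1.32 for Cebpb. Their median size without regard to sign was 0.49, against 0.26 over all genes tested. In 4 genes the arrays of the groups did not overlap, Cebpb and Slc7a11 with GFP positive above and Asns and Ddit4 with GFP negative above, while 25.3% of all genes tested showed no overlap, 13.8% with GFP positive above and 11.5% with GFP negative above. For each of these 4 an exact 2-sided permutation test gave p = 0.1, the smallest that 3 arrays against 3 allow. Intervals were wide throughout the list, so a miss of the threshold does not show that the groups are alike.

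**Figure D1:**
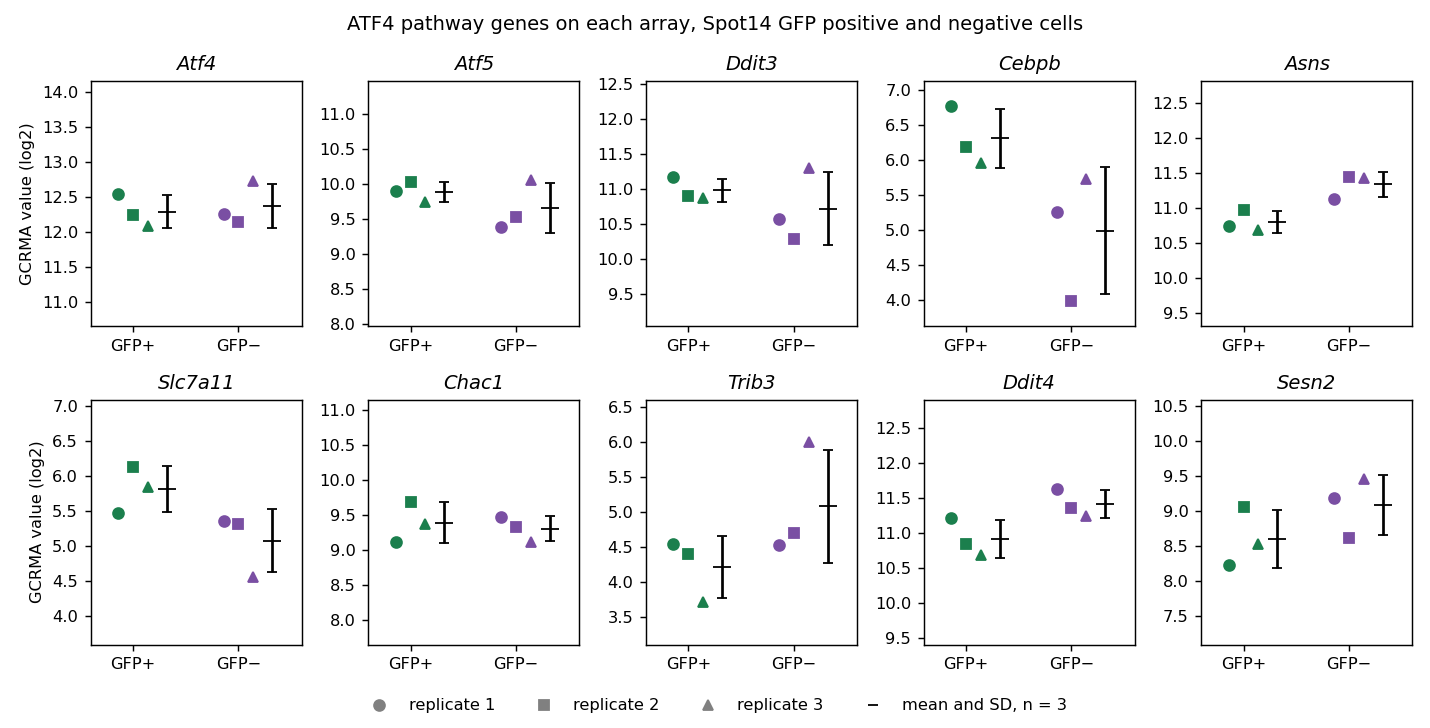
Log2 GCRMA value of each of the 10 genes on every array, with GFP positive arrays in green and GFP negative arrays in purple, marker shape giving the replicate number and black bars the mean with its SD (n = 3). Every panel spans the same log2 range around its own centre; Cebpb and Slc7a11 lie higher on all GFP positive arrays, Asns and Ddit4 lie higher on all GFP negative arrays, and GFP negative replicate 3 is the highest array for Atf4, Atf5, Ddit3, Trib3 and Sesn2.

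The transcription factors of the response were measured first. Atf4, the central activator, read 12.55, 12.24 and 12.10 on GFP positive replicates 1 to 3 and 12.26, 12.15 and 12.73 on GFP negative replicates 1 to 3. The highest array was GFP negative replicate 3 and the groups overlapped throughout. Atf4 averaged 12.30 ± 0.23 in GFP positive and 12.38 ± 0.31 in GFP negative cells (SD, n = 3), which differ by −0.08 (SE 0.23, 95% interval −0.61 to 0.45, limma adjusted p = 0.903). The interval holds changes of the message in either direction, and its sign turned to 0.093 without GFP negative replicate 3.

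A second Atf4 probe set gave another picture of the same gene. It read 9.51, 10.30 and 10.42 on GFP positive and 10.01, 9.93 and 9.28 on GFP negative arrays, a difference of 0.33 (limma adjusted p = 0.689 when every probe set that passes the filter is fitted). The arrays highest with the brightest probe set, GFP negative replicate 3 and GFP positive replicate 1, were the lowest with this one, and the array lowest with the brightest, GFP positive replicate 3, was the highest. The third Atf4 probe set was close to background (3.04 and 2.91). The suffix _x_at of the second marks probes that may bind other transcripts, and the brightest has no such suffix; which of them follows the Atf4 mRNA was not tested.

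Atf5, a relative of Atf4 that is also translated better under stress, read 9.89, 10.02 and 9.74 in GFP positive and 9.38, 9.52 and 10.06 in GFP negative cells. Replicates 1 and 2 of GFP negative cells lay below every GFP positive array, and replicate 3 lay above every one. The difference was 0.23 (SE 0.23, limma adjusted p = 0.671) with all arrays and 0.44 without GFP negative replicate 3 (limma adjusted p = 0.130). A like order held for Ddit3, which encodes CHOP, a factor linked to cell death under lasting stress. Ddit3 measured 11.17, 10.89 and 10.87 in GFP positive and 10.57, 10.28 and 11.30 in GFP negative cells. Its difference was 0.26 (SE 0.28, limma adjusted p = 0.706), or 0.55 without GFP negative replicate 3 (limma adjusted p = 0.0950), where the remaining arrays no longer overlapped. The second Ddit3 probe set differed by 0.32 and put GFP negative replicate 3 at 9.89, below every GFP positive array rather than above.

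Cebpb, a C/EBP factor that binds with ATF4 and is itself a stress responsive gene, had the largest difference of the 10. It read 6.78, 6.20 and 5.96 on GFP positive and 5.26, 3.99 and 5.73 on GFP negative arrays. The groups did not overlap, although GFP negative replicate 2 stood far below its group and just under the level of the filter. The means were 6.31 ± 0.42 and 4.99 ± 0.90 (SD, n = 3), a 2.50-fold difference (log2 1.32, SE 0.45, 95% interval 0.26 to 2.38, limma adjusted p = 0.172). Cebpb is the 1 gene of the list that passed under any alternative. Without GFP negative replicate 3 the difference was 1.69 (limma adjusted p = 0.0475), where 11.8% of all genes passed. With array weights it was 1.59 (limma adjusted p = 0.0191), in a fit that called more of all genes than the main fit. That fit gave GFP positive replicate 2 a weight of 8.35. The limma adjusted p of Cebpb ran from 0.0191 to 0.502 over the 15 alternatives. Without GFP negative replicate 2 the difference was 0.82 (limma adjusted p = 0.283), and with the 3′ to 5′ ratio, which was largest on that array, as a covariate it was 0.76 (0.502). The other Cebpb probe set lay near background in both groups (2.69 each).

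**Figure D2:**
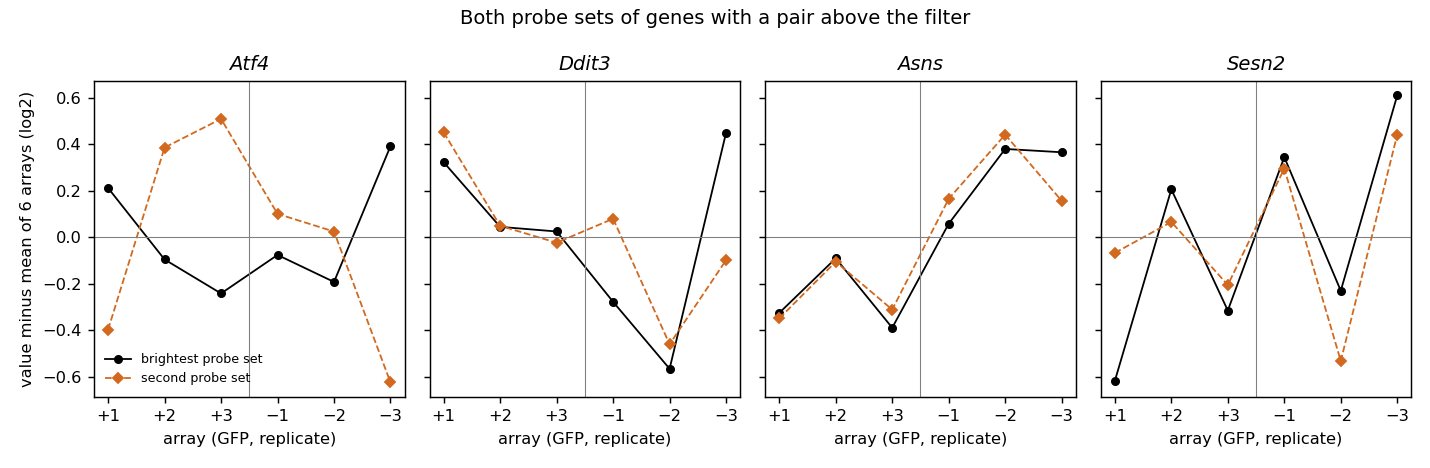
Log2 value of both probe sets above the filter for Atf4, Ddit3, Asns and Sesn2, each minus its own mean over the 6 arrays; the horizontal axis gives the arrays, GFP positive replicates 1 to 3 left of the grey line and GFP negative replicates 1 to 3 right of it. The lines of Asns follow each other closely, those of Sesn2 and Ddit3 do so in part, and those of Atf4 mirror each other.

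Genes that ATF4 is known to switch on through the C/EBP-ATF composite element come next, and the stretches that hold such letters are shown because the genes that carry them did not differ in the same direction. Windows of 250 bases before to 50 after the annotated start of each gene (RefSeq, mouse build GRCm38.p6) were present for all 10 genes, 11 windows in all, and were searched on both strands for TGATGNAA, the core of the composite element, and for TGACGNAA, a form close to the cyclic AMP response element. Windows of Asns, Chac1, Slc7a11 and Trib3 held the composite letters and that of Chac1 also held the other form, and the matches do not overlap. Over all 32851 windows, 3.97% held the composite letters and 1.59% the other form. Counted by gene among the 8621 tested genes with a window, the shares were 2.59% and 3.19%. Capitals mark the matches, and each stretch reads 5′ to 3′ on the strand of its gene, at chr6:7693210-7693459 (minus strand) for Asns, chr3:50443614-50443863 (minus) for Slc7a11, chr2:119350992-119351241 (plus) for Chac1 and chr2:152344028-152344057 (minus) for Trib3.
Asns: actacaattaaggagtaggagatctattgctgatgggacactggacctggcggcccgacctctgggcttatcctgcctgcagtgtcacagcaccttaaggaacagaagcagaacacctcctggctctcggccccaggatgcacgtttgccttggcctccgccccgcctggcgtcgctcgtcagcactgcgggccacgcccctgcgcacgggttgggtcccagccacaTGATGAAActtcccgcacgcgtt
Slc7a11: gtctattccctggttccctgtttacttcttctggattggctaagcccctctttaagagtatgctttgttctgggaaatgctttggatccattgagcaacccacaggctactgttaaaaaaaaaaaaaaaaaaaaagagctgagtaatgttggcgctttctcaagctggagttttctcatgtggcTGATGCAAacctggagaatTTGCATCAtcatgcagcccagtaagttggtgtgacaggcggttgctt
Chac1: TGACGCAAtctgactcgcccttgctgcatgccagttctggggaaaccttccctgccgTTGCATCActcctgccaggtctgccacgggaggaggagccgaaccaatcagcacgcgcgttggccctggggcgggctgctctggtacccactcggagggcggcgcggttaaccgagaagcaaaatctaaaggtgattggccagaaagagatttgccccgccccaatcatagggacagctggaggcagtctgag
Trib3: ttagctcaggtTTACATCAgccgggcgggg
The match of Asns begins 23 bases before the annotated start. Slc7a11 has a pair on opposite strands, beginning 66 and 47 bases before it, and the composite match of Chac1 begins 193 bases before. The Trib3 match lies after the start, from base 15 to base 22, so only a short stretch around it is shown. A match is a description of the letters and not evidence that a factor binds there. Among 223 tested genes with the composite letters, 18 passed (8.07%, 10 higher and 8 lower), and among 8621 tested genes with a window 4.15% did. Among 275 tested genes with the other form, 8 passed (2.91%, 2 higher and 6 lower). No test compared these shares.

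Asns, asparagine synthetase, the enzyme that makes asparagine from aspartate and glutamine, was lower on every GFP positive array. It read 10.75, 10.98 and 10.68 there and 11.13, 11.45 and 11.44 on GFP negative arrays. The groups did not overlap, and each was tight. The means were 10.80 ± 0.16 and 11.34 ± 0.18 (SD, n = 3), a 1.45-fold difference (log2 −0.54, SE 0.19, 95% interval −0.97 to −0.10) with an unadjusted limma p of 0.022 and an adjusted p of 0.175. The second probe set, which has no suffix for shared probes (the brightest ends in _x_at), gave −0.51 and also separated the groups, with 10.03, 10.27 and 10.07 against 10.54, 10.82 and 10.53. Leaving out any 1 array kept the difference between −0.64 and −0.48, and the adjusted p did not pass under any of the 16 alternatives (lowest 0.111).

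Slc7a11, the cystine importer xCT, which exchanges glutamate for cystine and so feeds glutathione synthesis, lay in the other direction. It measured 5.48, 6.13 and 5.84 on GFP positive and 5.36, 5.31 and 4.55 on GFP negative arrays. GFP positive replicate 1 was only just above the highest GFP negative array, and GFP negative replicate 3 was the lowest of all. The difference was 0.74 (SE 0.28, 95% interval 0.08 to 1.41), or 1.67-fold, with an unadjusted limma p of 0.0336 and an adjusted p of 0.221. Without GFP negative replicate 3 it was 0.48 (limma adjusted p = 0.198), a change of more than 1.5 times, and the sign did not turn. Slc7a11 also responds to the oxidative stress factor NRF2. Its second probe set, which is annotated to a RefSeq mRNA, lay near background at 2.84 in both groups (difference 0.006). The difference of 0.74 therefore rests on 1 probe set, and which of them follows the Slc7a11 mRNA was not tested.

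Chac1, an enzyme that breaks down glutathione and is a sensitive reporter of ATF4 activity in many cells, showed no group pattern. It read 9.10, 9.69 and 9.37 in GFP positive and 9.47, 9.32 and 9.11 in GFP negative cells. The highest and the lowest array were both GFP positive. The difference was 0.09 (SE 0.21, 95% interval −0.41 to 0.58, limma adjusted p = 0.892) and its sign turned without GFP positive replicate 2 or GFP negative replicate 3.

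The last of the 10 genes, Trib3, Ddit4 and Sesn2, are known as brakes, and none of them passed. Trib3, a pseudokinase that binds ATF4 and dampens it, read 4.54, 4.40 and 3.70 on GFP positive and 4.53, 4.70 and 6.00 on GFP negative arrays. Its level was near the filter on all arrays but GFP negative replicate 3, which stood 1.39 above the mean of the other GFP negative arrays. The difference of −0.86 (SE 0.42, limma adjusted p = 0.348) shrank to −0.40 without that array (0.377). The second probe set read 5.23 on GFP negative replicate 3 and 3.11 to 3.61 elsewhere. The brighter ends in _x_at and the other in _a_at, a suffix for probes shared by several transcripts.

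Ddit4, also called REDD1, which shuts down the growth kinase complex mTORC1, was 1.41-fold lower in GFP positive cells. It measured 11.21, 10.84 and 10.68 there and 11.62, 11.35 and 11.24 in GFP negative cells. The groups did not overlap, but GFP positive replicate 1 and GFP negative replicate 3 nearly met. The difference was −0.49 (SE 0.21, 95% interval −0.99 to 0.00, limma adjusted p = 0.277). It ran from −0.65 to −0.38 with 1 array left out, and the lowest adjusted p of 16 alternatives was 0.0529, with array weights.

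Sesn2, sestrin 2, a leucine sensor that restrains mTORC1 when leucine is scarce, varied as much within the groups as between them. Its values were 8.23, 9.05 and 8.53 in GFP positive and 9.19, 8.61 and 9.45 in GFP negative cells. GFP positive replicate 2 lay above GFP negative replicate 2, so the groups overlapped. The difference was −0.48 (SE 0.30, limma adjusted p = 0.470), −0.30 without GFP negative replicate 3 and −0.14 with the second probe set; with array weights it was 0.016.

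**Figure D3:**
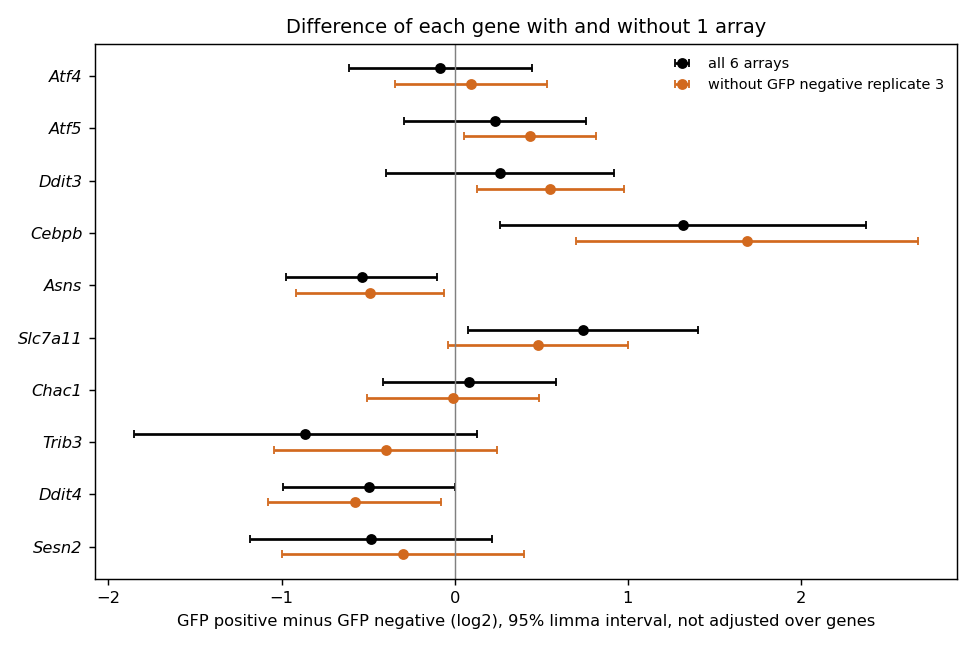
Log2 difference of each gene (GFP positive minus GFP negative) with its 95% limma interval (not adjusted over genes), over all 6 arrays in black and without GFP negative replicate 3 in orange. Only the intervals of Cebpb, Asns and Slc7a11 leave out 0 over all arrays; without that array those of Cebpb, Atf5, Ddit3, Ddit4 and Asns do, and of these Cebpb alone passed after adjustment over all genes.

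Replicates of a group did not move through the list as a block. Within GFP positive cells replicate 1 was highest for Atf4, Ddit3, Ddit4, Trib3 and Cebpb, and replicate 2 was highest for Atf5, Asns, Chac1, Sesn2 and Slc7a11. Replicate 3 was highest for none of the 10 genes and lowest for 7; over all genes tested it was highest for 23.2% and lowest for 49.4%. In GFP negative cells replicate 3 was highest for Atf4, Atf5, Ddit3, Trib3, Sesn2 and Cebpb, and lowest for Ddit4, Chac1 and Slc7a11. Over all genes tested it was highest of its group for 51.2% and lowest for 33%. Against the mean of the other GFP negative arrays, GFP negative replicate 3 was higher by 1.39 for Trib3, 1.11 for Cebpb, 0.87 for Ddit3, 0.61 for Atf5, 0.55 for Sesn2 and 0.53 for Atf4. It was lower for Slc7a11 (−0.78), Chac1 (−0.28) and Ddit4 (−0.25), and Asns was nearly level (0.15). The median size of this gap was 0.58 in the list and 0.50 over all genes tested. Genes that ATF4 is known to activate lay on both sides on this array, with Trib3 and Sesn2 high and Chac1 and Slc7a11 low. For Atf4 and Ddit3 the place of this array depended on the probe set, since the second Atf4 probe set was lowest on it (9.28) and the second Ddit3 probe set (9.89) lay below GFP negative replicate 1 (10.07).

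The rest of the pathway was described with 10 further lists of 147 distinct genes, of which 132 were tested. Of these 2 were called higher and 2 lower, against 4.46% of all genes. At an unadjusted limma p under 0.05, 13 were higher and 11 lower, against 9.92% and 8.28% of all genes tested. Cebpd, another C/EBP factor, rose 2.02-fold (11.27, 11.11 and 10.99 against 10.14, 9.80 and 10.37; limma adjusted p = 0.0403). Txnip, which binds thioredoxin and limits glucose uptake, rose 3.00-fold (8.98, 8.67 and 9.03 against 7.94, 6.71 and 7.26; limma adjusted p = 0.0386). Mthfd2, a mitochondrial enzyme of folate metabolism that is high in dividing cells, fell by 1.21 on the log2 scale (9.32, 9.47 and 8.63 against 10.29, 10.33 and 10.42; limma adjusted p = 0.0425). Tnfrsf10b, a death receptor, was 4.41, 4.87 and 4.94 on GFP negative and 3.64, 3.92 and 3.62 on GFP positive arrays (−1.01, limma adjusted p = 0.0434); it passed the filter only through the group where it was higher, so its call gives no support. These calls depended on single arrays: with 1 array left out Cebpd and Mthfd2 passed only without GFP negative replicate 3, and Txnip and Tnfrsf10b only without GFP negative replicate 1 or 3, with an adjusted p of at most 0.166, 0.131, 0.159 and 0.190.

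Upstream of Atf4, no gene of the eIF2 kinase and phosphatase list passed (9 tested, median difference 0.01). At an unadjusted limma p under 0.05, 1 gene of the list was higher, the kinase Eif2ak2 (1.01, limma adjusted p = 0.112). The brightest were Ppp1r15b, a subunit that directs a phosphatase to eIF2 (0.26, limma adjusted p = 0.523), and Impact, an inhibitor of the amino acid sensing kinase GCN2 (−0.24, 0.777). Of 8 tested genes of the eIF2B and ternary complex list, all were negative with a median of −0.24 and none passed, nor was any under 0.05 unadjusted. The median was −0.37 without GFP negative replicate 2 and −0.11, with 6 of 8 negative, without GFP negative replicate 3. Eif2s2 differed by −0.25 (limma adjusted p = 0.675) and Eif5 by −0.06 (0.939). In the list of bZIP partners Cebpd was the only call of 12 tested genes (median 0.01).

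Downstream, the cytosolic aminoacyl-tRNA synthetase list, which also holds the tRNA exporter Xpot, leaned lower in GFP positive cells without a call in the main fit. Of 18 tested genes 17 were negative with a median of −0.38, where 49.5% of all genes tested were negative. At an unadjusted limma p under 0.05, 2 were lower, where 8.28% of all genes tested were. The brightest were Hars (−0.27, limma adjusted p = 0.589) and Nars (−0.21, 0.579). Without GFP negative replicate 3, 13 of 18 were negative and the median was −0.12, so the lean was smaller without that array. That fit called 1 gene of the list lower, where 11.8% of all genes passed. The same count came with arrays set to a common median, with eBayes trend and robust settings and with array weights. Over all genes the common median gave 288 higher and 279 lower, and array weights called more genes than the main fit. Amino acid transporters (10 tested, median 0.07) had no call in the main fit, and under 0.05 by unadjusted limma p there were 1 higher and 1 lower. The neutral amino acid carrier Slc1a4 differed by 0.07 (limma adjusted p = 0.897) and the glycine transporter Slc6a9 by 0.44 (0.227). Leaving out GFP negative replicate 3 gave 1 higher and 1 lower transporter call, where 11.8% of all genes passed. Among 11 amino acid synthesis enzymes, with a median of 0.10, Mthfd2 was the only call in the main fit. Leaving out the same array gave 1 higher and 1 lower call there, beside the same 11.8% of all genes. Of 17 other genes known to respond to ATF4, Txnip rose and Tnfrsf10b was the call described above. Their median was −0.17, or −0.023 without GFP negative replicate 3 and −0.089 without GFP positive replicate 3, and it turned to 0.0011 with the filter at log2 6 and to 0.097 with array weights.

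Neighbouring stress pathways gave no call in the main fit. Of 19 tested chaperones of the endoplasmic reticulum and targets of XBP1 or ATF6, 16 were negative with a median of −0.17. Over all genes tested 49.5% were negative. At an unadjusted limma p under 0.05, 2 of the 19 were lower, where 8.28% of all genes tested were. Hspa5, the chaperone BiP, read 13.95 and 14.12 (−0.17, limma adjusted p = 0.691) and Canx, the lectin chaperone calnexin, differed by 0.36 (0.345). Without GFP negative replicate 3, 12 of these 19 genes were negative and the median was −0.10. That fit called 1 of them lower after adjustment, where 11.8% of all genes passed. The mTORC1 amino acid sensing list (18 tested, median 0.03) had no call in the main fit, and 1 higher and 1 lower gene by unadjusted limma p. Sesn3, a relative of Sesn2, differed by 0.29 (limma adjusted p = 0.469) and Rheb, the activator of mTORC1, by −0.03 (0.963). In this list 1 gene was called lower without GFP negative replicate 3, where 11.8% of all genes passed. With array weights 1 was called lower, in a fit that called more of all genes than the main fit. Of 10 tested NRF2 targets, a list that also holds Slc7a11, 7 were positive with a median of 0.16. At an unadjusted limma p under 0.05, 3 were higher, Slc7a11 itself among them, where 9.92% of all genes tested were. Tkt differed by −0.04 (limma adjusted p = 0.955) and Txnrd1 by 0.14 (0.814).

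**Figure D4:**
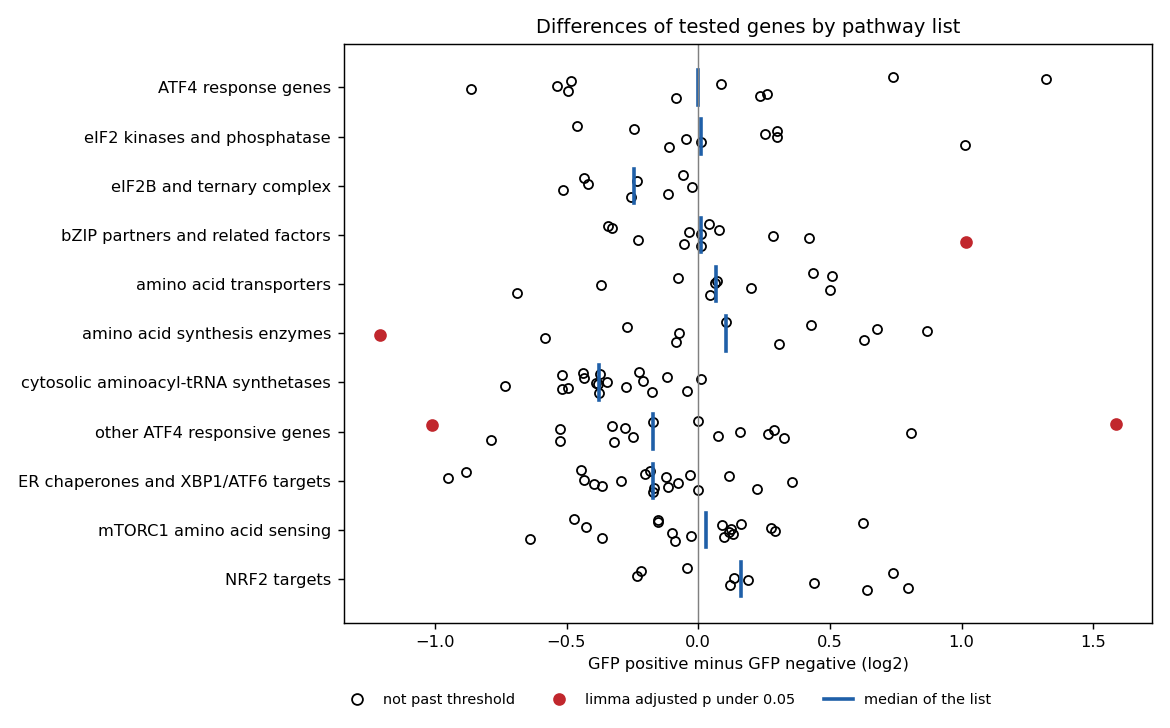
Log2 difference of each tested gene (GFP positive minus GFP negative) for the 10 genes of the ATF4 response (top) and the 10 further lists; open circles did not pass, red circles passed at a limma adjusted p under 0.05 and blue bars are list medians. The 4 red circles are Cebpd, Mthfd2, Tnfrsf10b and Txnip, and the tRNA synthetases lie left of 0 with 1 exception.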

How the data were processed

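The authors deposited log2 values from GCRMA, as the submitters' processing notes name it; neither its version nor a genome build is given in the sources used here. GCRMA estimates background from the letters of each probe, gives all arrays a like distribution and pulls dim probe sets to a floor, so differences near log2 4 depend on that estimate and a shift common to all genes would not be seen. What sets the biological replicates apart is not given either, so p-values measure the spread between these arrays. No further normalization was applied to the 45101 probe sets. Genes were named from the platform annotation. The test was limma 3.58.1 (lmFit, then eBayes without trend; R 4.3.3) with p-values adjusted by Benjamini-Hochberg over the 10531 genes tested. In simulated data for this comparison of 10531 genes, 50 genes were changed at each size. The fit recovered 0% of changes of 0.5, 36% of 1, 82% of 2 and 92% of 3 on the log2 scale. False calls numbered 5. In that setting differences of the size seen in most of the 10 genes would mostly be missed with 3 arrays a group. The data themselves gave 470 calls, and recovery with that many changed genes was not simulated. The 10 genes and the lists were chosen with earlier results of these data known. Of the lists, the text names up to 2 calls in each direction or else the 2 brightest genes. Eif2ak2 is named besides these. Promoter windows came from RefSeq (GRCm38.p6). Alternatives were other filters, scalings, probe set choices, eBayes settings, array weights, a replicate block, a 3′ to 5′ covariate and each array left out.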

Additional observations from a re-analysis of the deposited data

How the results depend on the processing

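Precision is limited by 3 arrays a group. Of 155 differences of the 10 genes recomputed under 16 alternatives, 146 kept their direction and their side of the threshold; 2 (Cebpb) passed and 7 turned sign. The filter at log2 6 left Trib3, Cebpb and Slc7a11 untested, and leaving out probe sets ending in _s_at, _x_at or _a_at left out Atf5 and Trib3. Reading genes from the probe set of smallest p turned Atf4 (0.33), Impact (0.51) and Eif5 (0.25). Array weights (0.152 for GFP negative replicate 3, 8.35 for GFP positive replicate 2) turned Atf4 (0.012), Sesn2 (0.016), Slc1a4 (−0.057), Tkt (0.25) and Txnrd1 (−0.12). The 3′ to 5′ covariate turned Impact (0.11) and Eif5 (0.075). With 1 array left out, differences ran from −0.21 to 0.093 for Atf4, −0.066 to 0.23 for Chac1, −0.51 to 0.096 for Impact, −0.23 to 0.084 for Eif5, −0.017 to 0.13 for Slc1a4, −0.18 to 0.059 for Rheb, −0.20 to 0.19 for Tkt and −0.027 to 0.27 for Txnrd1. None of these was past the threshold in any fit, and the cause was not tested.

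Counts over all genes, 248 higher and 222 lower, moved more. Lower genes numbered 101 without a filter. Array weights gave 1051 higher and 603 lower, and the 3′ to 5′ covariate 9 and 0 (794 and 563 at an unadjusted limma p under 0.05). With 1 array left out they ran from 1 to 801 and from 0 to 443. Of the 10 genes 1 was higher with array weights, and 0 to 1 higher and 0 lower with 1 array left out. Of the further lists, 2 higher and 2 lower, counts were 0 and 0 with no filter, with all probe sets and with the 3′ to 5′ covariate, 8 and 8 with array weights, and 1 lower with the log2 6 filter or quantile normalization. With 1 array left out they ran from 0 to 4 and from 0 to 6; the cause was not tested. With the replicate number as a block, 19 genes were higher and 8 lower, and 0 and 0 of the further lists. Whether same-numbered arrays belong together is not known. Deviations of same-numbered arrays from their group means correlated at −0.253, 0.0526 and −0.5 across genes, and those of unlike-numbered arrays at −0.376 to 0.444. Deviations from a mean of 3 arrays cancel out within the group and so depend on each other. These correlations therefore cannot decide whether the arrays are paired, and the block was kept as an alternative to the main fit.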
